A study of Mus musculus with 9 samples.

Results

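The contractile apparatus of uterine smooth muscle was described in mouse uterus through 31 genes chosen by name, from the actins and tropomyosins of the thin filament to the oxytocin receptor. Each of the 31 names matched 1 of 36648 annotated genes, and a gene's level was taken as its annotated transcripts' deposited FPKM added together. FPKM are fragments scaled to the length of the transcript and to the mapped fragments of the library. Averaged over the 9 libraries, 25 of the 31 genes reached 1 FPKM or more, and these were tested among 13377 genes in all. The 6 genes below that level, Ppp1r12b, Myocd, Ldb3, Itga8, Cacna1c and Kcnma1, are given by their values alone.

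The libraries fell into 3 groups of 3, by what had been injected into the uterine horns. The arrested group received pooled culture medium of 18 human embryos that had arrested. The competent group received pooled medium of 9 developmentally competent human embryos, and the control group received unconditioned embryo culture medium. All groups were immature C57BL/6 females, without an engineered allele in the labels, primed with a single dose of 1 mg progesterone and with β-estradiol at 10 mg/kg per day over 3 days, and given 50 µl of fluid. The treatment label gives their age as 25 days and the design text also gives 21 days, which was not settled. The libraries of a conditioned group share a pool of medium, and RNA was extracted from the uterus as a whole. The sources used here do not say whether each library is a different animal, so the p-values measure only the spread between these samples.

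The myometrium is the muscular coat of the uterus. Its smooth muscle cells shorten when calcium and calmodulin switch on myosin light chain kinase, which phosphorylates the regulatory light chain of smooth muscle myosin and lets the motor pull on actin filaments. Those filaments are held by tropomyosin, caldesmon and calponin and are anchored at dense bodies and membrane plaques, while desmin filaments tie the dense bodies together. Contraction is set off by voltage-gated calcium channels and by receptors such as that for oxytocin. Many of the genes are transcribed through serum response factor and its partner myocardin, which act at a DNA element called the CArG box. Vascular smooth muscle and pericytes use several of the same genes, so whole uterus holds their RNA from more than 1 cell type.

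Depth in reads is not known from these files. Read coverage times transcript length came to between 1303 and 2471 Mb per library. Between libraries, log2(FPKM + 1) over the tested genes correlated at 0.853 to 0.902 within groups and at 0.861 to 0.900 between groups. Acta2, Actg2, Tagln, Cnn1, Des and Myh11 were present in every library, and the lowest value among them was 17.3 FPKM, for Myh11 in arrested library 1. Not all of the 31 genes were. Ppp1r12b was listed at 0 in all 9 libraries, Mylk and Kcnma1 in 4, Cacna1c in 3, Itga8 in 2, and Oxtr and Myocd in 1. Hoxa11, a transcription factor gene of the uterine wall, had 30.0, 50.9 and 31.4 FPKM in the arrested libraries, 19.2, 20.9 and 24.1 FPKM in the competent libraries and 33.5, 39.2 and 39.4 FPKM in the control libraries. It was present in every library, but the competent libraries lay below all others. Arrested library 3 stood apart by 1 gene: Ovgp1, which encodes the oviduct-specific glycoprotein, was at 40.5 FPKM there and listed at 0 in the other 8. Whether that library held oviduct tissue was not tested.

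Most of the contractile genes had lower mean levels in arrested than in competent uteri, but Tpm3 was the only one of the 25 to pass the test. Of the 25 tested genes, 23 had a difference below 0 in that comparison, with a median of -0.74 on the log2(FPKM + 1) scale, whereas 50.9% of all 13377 genes lay below 0 with a median of -0.01. The call rate over all genes was 0.135% (18 genes, limma, Benjamini-Hochberg adjusted p under 0.05), against 1 of the 25, and 0.0748% were called lower. At an unadjusted limma p under 0.05 there were 4 of the 25, namely Actg2, Tpm2, Tpm3 and Pdlim7, where all genes gave 10.9% in either direction and 5.58% lower. Arrested libraries lay wholly below competent ones for 2 genes, Tpm3 and Pdlim7, where all genes gave 8.72%. In bulk tissue fewer muscle cells and less of these RNAs per cell cannot be told apart.

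In competent against control uteri the same 25 genes leaned the other way and none was called. Here 23 of the 25 lay above 0, with a median of 0.29, against a median of -0.01 for all genes, of which 51.9% lay below 0. The call rate over all genes was 0.0449% (6 genes), and at an unadjusted p under 0.05 there were 0 of the 25 where all genes gave 5.15%. The fit shares 1 estimate of the spread over the 3 groups, so the spread of the arrested libraries enters this comparison too. The count was 4 of the 25 with the 2 groups alone, and 2 with the replicate number as a block or without competent library 1. No share over all genes is given for these settings. Competent libraries lay wholly above control ones for Tpm3, Smtn and Oxtr, 3 of 25, where all genes gave 6.71% in that direction.

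In arrested against control uteri 21 of the 25 lay below 0, but the median was -0.18, and that of all genes, of which 53.2% lay below 0, was -0.02. None was called, where all genes gave 0.0523% (7 genes), and 2 had an unadjusted p under 0.05, again Tpm3 and Pdlim7, where all genes gave 5.24% in either direction and 3.16% lower. Arrested libraries lay wholly below control ones for these same 2 genes, where all genes gave 5.36%. In the limma F test over the 3 groups none of the 25 was called, where all genes gave 0.0972% (13 genes). The comparisons of arrested with competent and of competent with control share the competent libraries, and those against control share the control libraries, so their medians are not independent of each other.

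**Figure D1:**
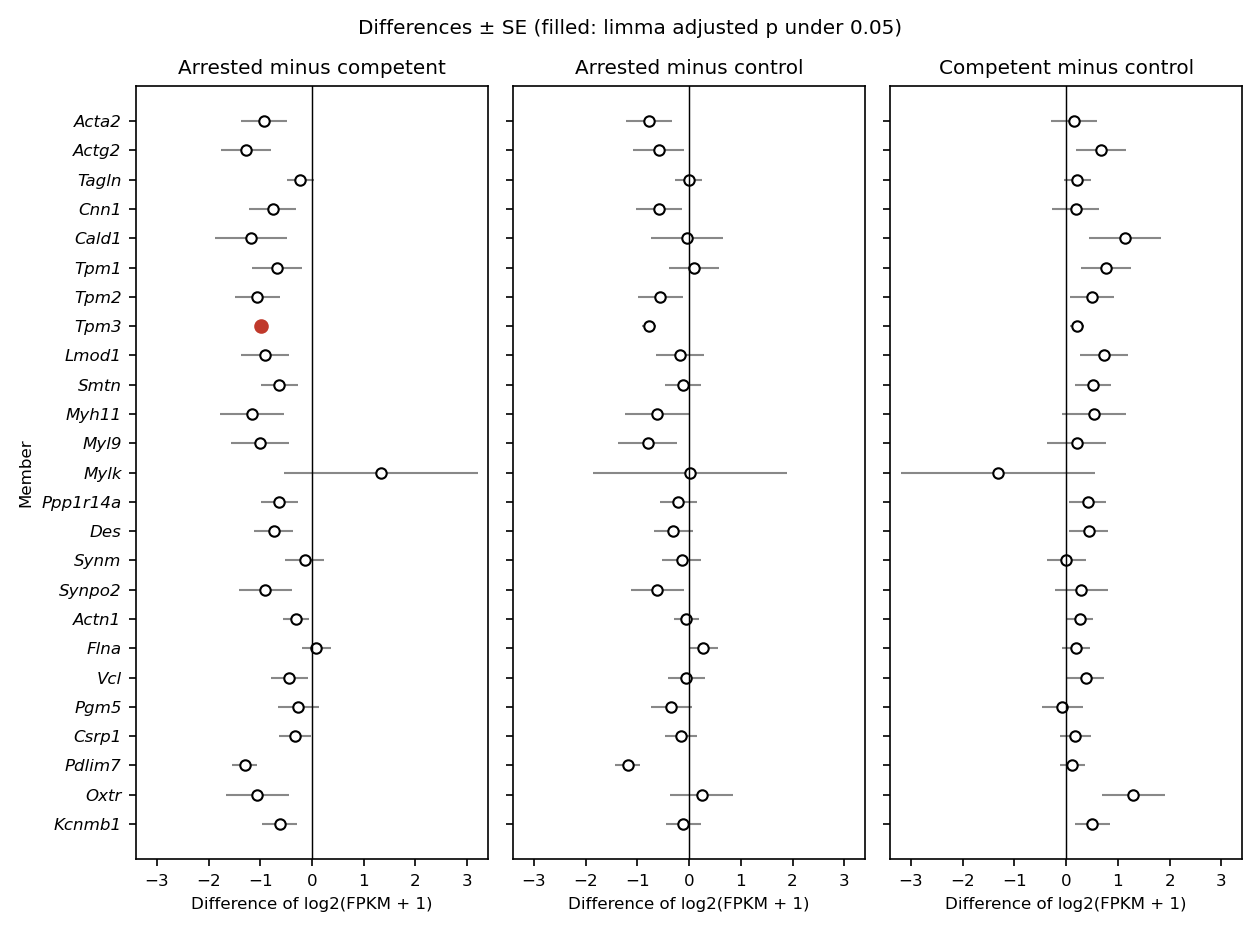
Differences on the log2(FPKM + 1) scale, with their standard errors, for the 25 tested contractile genes in each of the 3 comparisons, and Tpm3 filled as the only one past an adjusted p of 0.05. Most points lie left of 0 for arrested minus competent, with a median of -0.74, and right of 0 for competent minus control, with a median of 0.29.

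Within the arrested group most contractile genes differed between libraries by more than the groups differed from each other. The range within the arrested libraries exceeded the range of the 3 group means for 23 of the 25 genes, the exceptions being Tpm3 and Pdlim7, and for 77.3% of all genes. Single libraries range more widely than means of 3 by construction. The median range between the 3 libraries of a group was 1.54 on the log2 scale for the contractile genes in arrested uteri, 0.87 in competent and 0.42 in control uteri. Over all tested genes these medians were 0.68 in arrested, 0.41 in competent and 0.48 in control uteri.

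The same libraries were high or low for gene after gene. Arrested library 1 was the lowest of the 9 for 20 of the 25 genes, a place it held for 19.2% of all genes, and arrested library 3 was lowest for the other 5. Ties were credited to the first of the tied libraries, which favours arrested library 1 over the 9 and library 1 within a group. For Mylk, 1 of the 20, the place was shared at 0 among 4 libraries, and the shares of all genes hold such ties too. With assembled transcripts arrested library 1 was lowest for 19 of the 25. Competent library 2 was highest for 17 of the 25, against 11.0% of all genes. Within the arrested group library 2 was highest for 22 of the 25, against 38.2% of all genes, and within the competent group library 1 was lowest for 20, against 34.2%. Summed over the 31 genes, the values came to 2399, 5606 and 2482 FPKM in the arrested libraries, 3671, 7159 and 5587 FPKM in the competent libraries and 4031, 4336 and 4372 FPKM in the control libraries. The arrested sums therefore straddle those of the other groups, with 2 libraries below every other library and 1 above every control library.

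The medians turned on single libraries. Without arrested library 1 the median of the 25 genes in arrested minus control was 0.12, with 9 below 0, and without arrested library 2 it was -0.62, with 24 below 0. It was -0.36 without control library 1 and -0.08 without control library 3. In arrested minus competent the medians were -0.41 without arrested library 1 and -1.10 without arrested library 2. Without arrested library 2 there were 16 of the 25 genes at an unadjusted limma p under 0.05 in that comparison and Tpm3 alone was called. There were 9 without competent library 1, and 2 without arrested library 1, arrested library 3, competent library 2 or competent library 3. No share over all genes at that unadjusted p is given for these settings. Without arrested library 2 the genes called among all those tested also rose, from 18 to 43. In competent minus control the median was 0.16 without competent library 2, with 19 above 0, and 0.49 without competent library 1.

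Among the 10 thin filament genes, all lay below 0 in arrested minus competent, with a median of -0.92 and a range from -1.27 for Actg2 to -0.23 for Tagln. All 10 lay above 0 in competent minus control, from 0.15 to 1.14, and 9 lay below 0 in arrested minus control, with a median of -0.37. Tpm3 alone passed the test in any comparison. By level per length they ran from Lmod1, a leiomodin that seeds actin filaments, with a mean of 6.76 FPKM over the 9 libraries, to Tagln, the actin-binding protein transgelin, with 715 FPKM.

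Acta2 encodes smooth muscle α-actin and lies at chr19:34315580-34329826 (NCBIM37). It had 252, 704 and 234 FPKM in the arrested libraries, 437, 1013 and 643 FPKM in the competent libraries and 628, 620.2 and 539 FPKM in the control libraries. Arrested libraries 1 and 3 lay below all others, while arrested library 2 was second highest of the 9, so the groups overlapped. The means were 397 ± 266 FPKM in arrested, 698 ± 292 FPKM in competent and 596 ± 49.2 FPKM in control libraries (SD, n = 3 each), and the difference was -0.92 ± 0.45 (SE) in arrested minus competent (limma adjusted p = 0.508). In competent minus control its difference of 0.15 ± 0.45 (SE) became -0.17 without competent library 2.

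Actg2 encodes the γ-actin of visceral smooth muscle and lies at chr6:83462899-83486259. It had 63.5, 210.4 and 66.2 FPKM in the arrested libraries, 138, 323 and 285 FPKM in the competent libraries and 137, 144 and 156 FPKM in the control libraries. The control libraries were close together, competent libraries 2 and 3 lay above them with arrested library 2, and arrested libraries 1 and 3 lay below, so the groups overlapped. Its difference was -1.27 ± 0.49 (SE) in arrested minus competent and 0.68 ± 0.49 (SE) in competent minus control, with limma adjusted p of 0.414 and 0.957.

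The coding sequences of these 2 actins show how much read assignment has to tell apart. Over 1131 aligned coding bases, 84.4% were identical, and Acta2 was 83.2% identical to Actb, the cytoplasmic β-actin. A stretch of 90 coding bases shows where they differ, from the GENCODE vM1 transcripts on NCBIM37, coding bases 13 to 102 of Acta2 (chromosome 19) and 10 to 99 of Actg2 (chromosome 6), with the 15 bases that differ in capitals.
Acta2: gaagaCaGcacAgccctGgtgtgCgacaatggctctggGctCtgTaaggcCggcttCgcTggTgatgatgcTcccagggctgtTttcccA
Actg2: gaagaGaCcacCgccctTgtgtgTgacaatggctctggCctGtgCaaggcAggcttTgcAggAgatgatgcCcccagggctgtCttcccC
Both genes were highest in competent library 2 and lowest in arrested libraries 1 and 3, and the FPKM alone do not say how reads common to both were divided.

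**Figure D2:**
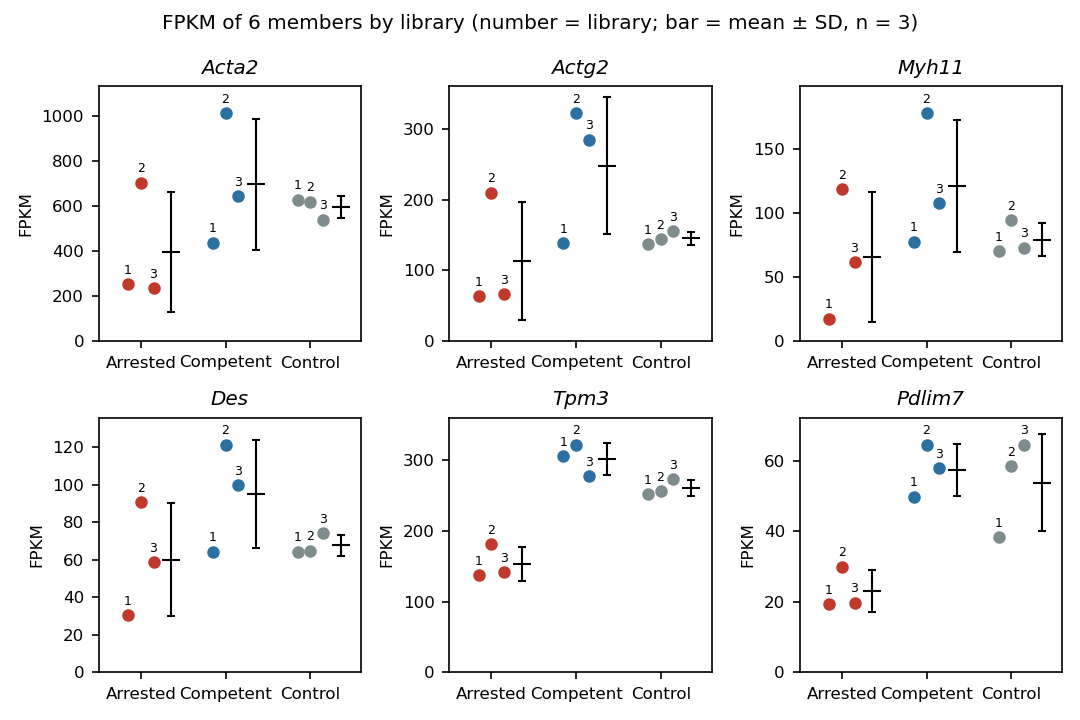
FPKM of Acta2, Actg2, Myh11, Des, Tpm3 and Pdlim7 in each library, by group, with mean and SD (n = 3) beside the points. For Acta2, Actg2, Myh11 and Des arrested library 2 lies among or above the control libraries, whereas for Tpm3 and Pdlim7 all 3 arrested libraries lie below all competent and control libraries.

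Tpm3 encodes a tropomyosin of slow skeletal muscle and, through other promoters and exons, of the cytoskeleton of most cells, and lies at chr3:89876571-89904824. It had 137, 181 and 142 FPKM in the arrested libraries, 306, 321 and 277 FPKM in the competent libraries and 252, 256 and 273 FPKM in the control libraries. All 3 arrested libraries lay below all others, arrested library 2 included, and all competent libraries lay above all control libraries. The means were 153 ± 23.9 FPKM in arrested, 301 ± 22.3 FPKM in competent and 260.4 ± 11.2 FPKM in control libraries (SD, n = 3 each). Tpm3 fell in arrested against competent uteri, by 0.98 ± 0.13 (SE) on the log2 scale (limma adjusted p = 0.0485). Against control the difference was -0.77 ± 0.13 (SE, limma adjusted p = 0.368), and competent minus control was 0.21 ± 0.13 (SE, adjusted p = 0.957). The call lay near the threshold: adjusted p ran from 0.015 without arrested library 2 to 0.294 over the alternatives, and 16 of 23 alternatives ended it, among them leaving out any of the other 8 libraries. Without arrested library 2 the difference from control was called as well, at -0.89 with an adjusted p of 0.0465, which reached 0.915 under other alternatives.

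The Tpm3 value was the sum of 3 annotated transcripts. Tpm3-003, a coding transcript of 2230 bases, had 60.2, 47.6 and 63.7 FPKM in the arrested libraries, 96.1, 116 and 101 FPKM in the competent libraries and 90.3, 102 and 81.0 FPKM in the control libraries. Tpm3-011, a retained intron transcript of 655 bases, had 58.1, 109 and 60.4 FPKM in the arrested libraries, 176, 159 and 153 FPKM in the competent libraries and 129.8, 123 and 192 FPKM in the control libraries. For both, the arrested libraries lay below all others. Tpm3-011 held 54.1% of the gene's FPKM. The coding sequence of Tpm3-003 has 747 bases, against 855 in Tpm1-007 of Tpm1 and in Tpm2-001 of Tpm2. All 3 transcripts start inside the gene, at 89883462, 89883587 and 89883598, whereas the annotated gene starts at 89876571 on the plus strand. The measured FPKM of Tpm3 is thus of transcripts from these inner starts. Which of the muscle and cytoskeletal products they encode was not tested. The remaining coding transcript, of 1837 bases, was lower in level, between 17.4 and 24.5 FPKM in arrested, 23.7 and 46.8 in competent and 0 and 31.8 in control libraries. Weighted by transcript length, a calculation chosen after the data were seen, Tpm3 had 87.4, 93.6 and 89.97 FPKM in the arrested libraries, 165, 189 and 155 FPKM in the competent libraries and 145, 154 and 129 FPKM in the control libraries. On that scale the arrested libraries lay within a narrow band, and the call against competent stood, with a difference of -0.90 (limma adjusted p = 0.0363).

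A near copy shares the pattern. Tpm3-rs7, a single-exon gene on chromosome 14, is identical to Tpm3-003 at 744 of 747 coding bases. It had 32.3, 34.3 and 33.1 FPKM in the arrested libraries, 61.1, 73.1 and 61.0 FPKM in the competent libraries and 52.6, 59.9 and 46.8 FPKM in the control libraries. Its arrested libraries also lay below all others, with a difference of -0.94 in arrested minus competent (limma adjusted p = 0.0645, not called). The FPKM alone do not say which of the 2 genes the shared reads came from.

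The other tropomyosins followed the remaining thin filament genes. Tpm1 and Tpm2, the main tropomyosins of smooth muscle, are 71.8% identical to each other over the coding sequence, and 73.2% and 72.8% identical to Tpm3. Tpm2 had 218, 621 and 236 FPKM in the arrested libraries, 417, 926 and 751 FPKM in the competent libraries and 412, 479.5 and 517 FPKM in the control libraries. Arrested library 2 was again above all control libraries, and the difference in arrested minus competent was -1.06 ± 0.43 (SE, limma adjusted p = 0.434). Tpm1 differed by -0.68 ± 0.48 (SE) in the same comparison and by 0.77 ± 0.48 (SE) in competent minus control, neither called.

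Cald1 encodes caldesmon, which restrains actin and myosin until it is released. It had 14.7, 83.1 and 45.9 FPKM in the arrested libraries, 39.2, 140.0 and 125 FPKM in the competent libraries and 24.7, 45.5 and 54.7 FPKM in the control libraries. Its 9 libraries spanned from 14.7 to 140.0 FPKM, arrested library 1 being lowest and competent libraries 2 and 3 highest, with competent library 1 among the control libraries. The difference in competent minus control was 1.14 ± 0.69 (SE, limma adjusted p = 0.957), and 0.57 to 2.49 over the alternatives. Cald1-005, a transcript of 1063 bases, held 38.6% of the gene's FPKM and was listed at 0 in 5 libraries. It had 74.8 and 73.5 FPKM in competent libraries 2 and 3, 41.7 FPKM in arrested library 2 and 31.1 FPKM in control library 3. Weighted by transcript length, Cald1 spanned from 12.4 FPKM in arrested library 1 to 73.9 FPKM in competent library 2. Cnn1, calponin, lay between 37.2 and 143.8 FPKM, Smtn, smoothelin, between 10.6 and 34.7 FPKM, Tagln between 468 and 961 FPKM, and Lmod1 between 1.77 and 11.4 FPKM. For each of these 4 arrested library 1 was the lowest of the 9.

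Of the 5 genes of the myosin motor and its switch, 4 were tested and none was called in any comparison. In arrested minus competent 3 lay below 0, and Mylk, listed at 0 in 4 libraries, lay above. Myh11 encodes the smooth muscle myosin heavy chain and lies at chr16:14194620-14291501. It had 17.3, 119 and 61.7 FPKM in the arrested libraries, 77.5, 178 and 108 FPKM in the competent libraries and 70.3, 94.1 and 72.9 FPKM in the control libraries. Arrested library 1 was far below every other library, and arrested library 2 was second highest. The difference was -1.16 ± 0.62 (SE) in arrested minus competent (limma adjusted p = 0.553), and its difference from control, -0.62 ± 0.62 (SE), became 0.12 without arrested library 1.

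Myl9 encodes the regulatory light chain that the kinase phosphorylates. It had 612, 1453 and 247 FPKM in the arrested libraries, 815, 1728 and 1269 FPKM in the competent libraries and 1075, 1062 and 1018 FPKM in the control libraries. The control libraries were close together, and here arrested library 3, not library 1, was the lowest. The difference was -1.01 ± 0.57 (SE) in arrested minus competent and -0.80 ± 0.57 (SE) in arrested minus control, with limma adjusted p of 0.576 and 0.907. Ppp1r14a encodes CPI-17, an inhibitor of myosin phosphatase. It had 47.5, 91.6 and 40.5 FPKM in the arrested libraries, 59.0, 120.4 and 93.9 FPKM in the competent libraries and 52.8, 66.4 and 78.6 FPKM in the control libraries. The groups overlapped, and the difference in arrested minus competent was -0.63 ± 0.36 (SE, limma adjusted p = 0.576).

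The kinase and the phosphatase subunit could not be read from annotated transcripts. Mylk, the light chain kinase, had 0, 17.8 and 23.6 FPKM in the arrested libraries, 27.9, 0 and 0 FPKM in the competent libraries and 0, 14.9 and 26.8 FPKM in the control libraries. The libraries at 0 include the 2 competent libraries that were high for other muscle genes. Transcripts that the submitters' processing assembled in each library, and that share splice junctions with Mylk alone, held 90.9% of its FPKM. These had 47.5, 145 and 61.5 FPKM in the arrested libraries, 76.7, 209 and 162 FPKM in the competent libraries and 119, 119 and 174 FPKM in the control libraries. Arrested library 1 was lowest and competent library 2 highest, the order seen for the other muscle genes. Ppp1r12b, a targeting subunit of myosin phosphatase, was listed at 0 in all 9 libraries. Its assembled transcripts had 4.16, 18.5 and 15.2 FPKM in the arrested libraries, 10.2, 12.7 and 10.2 FPKM in the competent libraries and 10.6, 7.75 and 10.2 FPKM in the control libraries, with arrested library 1 lowest and the other 2 arrested libraries highest.

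The 11 genes of intermediate filaments, dense bodies and membrane plaques differed less between groups. Of 9 tested, 8 lay below 0 in arrested minus competent, with a median of -0.34, and 8 lay above 0 in competent minus control, with a median of 0.19. None was called. Des encodes desmin, the intermediate filament protein of muscle, and lies at chr1:75356904-75365154. It had 30.5, 90.7 and 58.8 FPKM in the arrested libraries, 64.4, 121 and 99.7 FPKM in the competent libraries and 64.3, 64.9 and 74.3 FPKM in the control libraries. Arrested library 1 was lowest and competent library 2 highest, and the difference in arrested minus competent was -0.74 ± 0.38 (SE, limma adjusted p = 0.529). Synm, the partner filament protein synemin, was low, between 0.47 and 2.65 FPKM, and its difference was -0.14 ± 0.38 (SE).

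Pdlim7 encodes a PDZ and LIM domain protein, also called enigma, that binds actin filaments, and lies at chr13:55597156-55615037. It had 19.4, 30.0 and 19.8 FPKM in the arrested libraries, 49.8, 64.6 and 58.0 FPKM in the competent libraries and 38.3, 58.6 and 64.6 FPKM in the control libraries. As with Tpm3, all 3 arrested libraries lay below all others, while competent and control libraries overlapped. The means were 23.0 ± 6.01 FPKM in arrested, 57.4 ± 7.38 FPKM in competent and 53.8 ± 13.7 FPKM in control libraries (SD, n = 3 each). The difference was -1.30 ± 0.24 (SE) in arrested minus competent, the lowest of the 25 genes, and -1.18 ± 0.24 (SE) in arrested minus control. Neither passed the test, with limma adjusted p of 0.156 and 0.679, and over the alternatives the adjusted p in arrested minus competent lay between 0.081 and 0.515. In competent minus control its difference of 0.12 ± 0.24 (SE) became -0.10 without control library 1.

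The plaque and dense body genes varied between libraries in a smaller range than the thin filament genes. Arrested library 1 was again mostly the lowest, but the highest library differed from gene to gene. Vcl, vinculin, lay between 10.6 FPKM in arrested library 1 and 36.8 FPKM, Actn1, an α-actinin of many cell types, between 35.98 and 67.3 FPKM, and Csrp1, a LIM protein of smooth muscle, between 128 and 286 FPKM. Pgm5, aciculin of adherens-type plaques, lay between 11.4 and 37.1 FPKM, and Synpo2, myopodin, between 6.05 and 25.1 FPKM. Vcl and Csrp1 were highest in competent library 2, but Actn1 in competent library 3, Pgm5 in control library 3 and Synpo2 in control library 2. With assembled transcripts arrested library 1 had 22.1 FPKM of Vcl and 20.1 FPKM of Pgm5, and was the lowest of the 9 for neither. Differences in arrested minus competent were -0.44 ± 0.36 for Vcl, -0.91 ± 0.52 for Synpo2 and -0.34 ± 0.31 for Csrp1 (SE). Flna, filamin A, is an actin cross-linker of most cells. By annotated transcripts it alone among the tested genes of this role was not lowest in arrested library 1. It had 140.4, 135 and 74.9 FPKM in the arrested libraries, 80.2, 138 and 108 FPKM in the competent libraries and 85.5, 101 and 92.0 FPKM in the control libraries. Its value in arrested library 1 was the highest of the 9. Ldb3, a Z-disc protein of striated muscle, was at 0.98 FPKM at most, and Itga8, an integrin subunit of smooth muscle, lay between 0 and 2.57 FPKM.

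The genes of excitation had low levels. Oxtr encodes the oxytocin receptor, whose activation drives uterine contraction. It had 0.41, 3.47 and 0 FPKM in the arrested libraries, 2.44, 6.08 and 1.33 FPKM in the competent libraries and 0.70, 0.54 and 0.44 FPKM in the control libraries. All 3 competent libraries lay above all 3 control libraries, and the arrested libraries spanned both. The difference in competent minus control was 1.30 ± 0.61 (SE), not called (limma adjusted p = 0.957), and arrested minus control was 0.25 ± 0.61 (SE). Assembled transcripts held 47.7% of its FPKM, and with them it had 0.84, 7.15 and 3.22 FPKM in the arrested libraries, 2.44, 6.08 and 3.70 FPKM in the competent libraries and 2.03, 2.23 and 1.81 FPKM in the control libraries. With them the competent libraries were still above the control libraries, but the difference in competent minus control came to 0.69 (limma adjusted p = 0.92, with 0.504 to 1 over all alternatives).

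Kcnmb1 encodes the β1 subunit that tunes the large-conductance calcium-activated potassium channel of smooth muscle. It had 0.81, 2.67 and 2.34 FPKM in the arrested libraries, 2.31, 4.32 and 3.62 FPKM in the competent libraries and 1.62, 1.97 and 2.63 FPKM in the control libraries. The groups overlapped, and the difference in arrested minus competent was -0.62 ± 0.34 (SE, limma adjusted p = 0.556). Kcnma1, the pore subunit of that channel, and Cacna1c, the pore of the L-type calcium channel, reached at most 1.47 and 0.98 FPKM, and assembled transcripts held 68.3% of the FPKM of Kcnma1 and 84.9% of that of Cacna1c. Cacna1c had in assembled transcripts 0.83, 1.64 and 1.82 FPKM in the arrested libraries, 1.499, 3.11 and 2.52 FPKM in the competent libraries and 1.88, 1.88 and 2.13 FPKM in the control libraries. The lowest was again arrested library 1 and the highest competent library 2. Myocd, the transcriptional partner myocardin, had 0.25, 1.01 and 0.31 FPKM in the arrested libraries, 0.21, 0 and 0.52 FPKM in the competent libraries and 0.26, 0.15 and 0.32 FPKM in the control libraries. By annotated transcripts no order of groups could be read. Assembled transcripts held 67.4% of its FPKM, and with them it had 0.25, 1.73 and 0.59 FPKM in the arrested libraries, 1.19, 1.79 and 1.69 FPKM in the competent libraries and 0.74, 0.99 and 0.32 FPKM in the control libraries. All competent libraries then lay above all control libraries, and the arrested libraries spanned both.

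The FPKM of several muscle genes rested on short transcripts to which reads were assigned in some libraries and not in others. Over the 31 genes there were 51 annotated transcripts with a mean above 1 FPKM, and 27 of them were listed at 0 in at least 1 library. Myl9-002, a processed transcript of 345 bases, had 374, 919 and 0 FPKM in the arrested libraries, 476, 1088 and 789 FPKM in the competent libraries and 669, 633 and 659.9 FPKM in the control libraries. It was listed at 0 in arrested library 3, the library in which Myl9 was lowest. The coding transcript Myl9-001 of 1128 bases had 238, 534 and 247 FPKM in the arrested libraries, 339, 639.8 and 479.6 FPKM in the competent libraries and 406, 429 and 358 FPKM in the control libraries. On that transcript arrested libraries 1 and 3 were both low and close to each other.

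Flna-016, a processed transcript of 738 bases, had 100.7 FPKM in arrested library 1 and was listed at 0 in the other 8. Weighted by transcript length, Flna had 47.8, 134 and 73.9 FPKM in the arrested libraries, 79.2, 137 and 107 FPKM in the competent libraries and 84.8, 100.2 and 91.1 FPKM in the control libraries. The lowest of the 9 was then arrested library 1, and the difference in arrested minus competent, 0.08 ± 0.28 (SE) on summed FPKM, was -0.43 on that scale. Tpm1-018, a processed transcript of 649 bases, had 182, 188 and 161 FPKM in arrested library 2 and competent libraries 2 and 3 and was listed at 0 in the other 6. Tpm1-007, the leading coding transcript, had 62.4, 226 and 70.02 FPKM in the arrested libraries, 176, 308 and 229 FPKM in the competent libraries and 183, 202 and 140.0 FPKM in the control libraries. On it the lowest was arrested library 1 and the highest competent library 2.

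**Figure D3:**
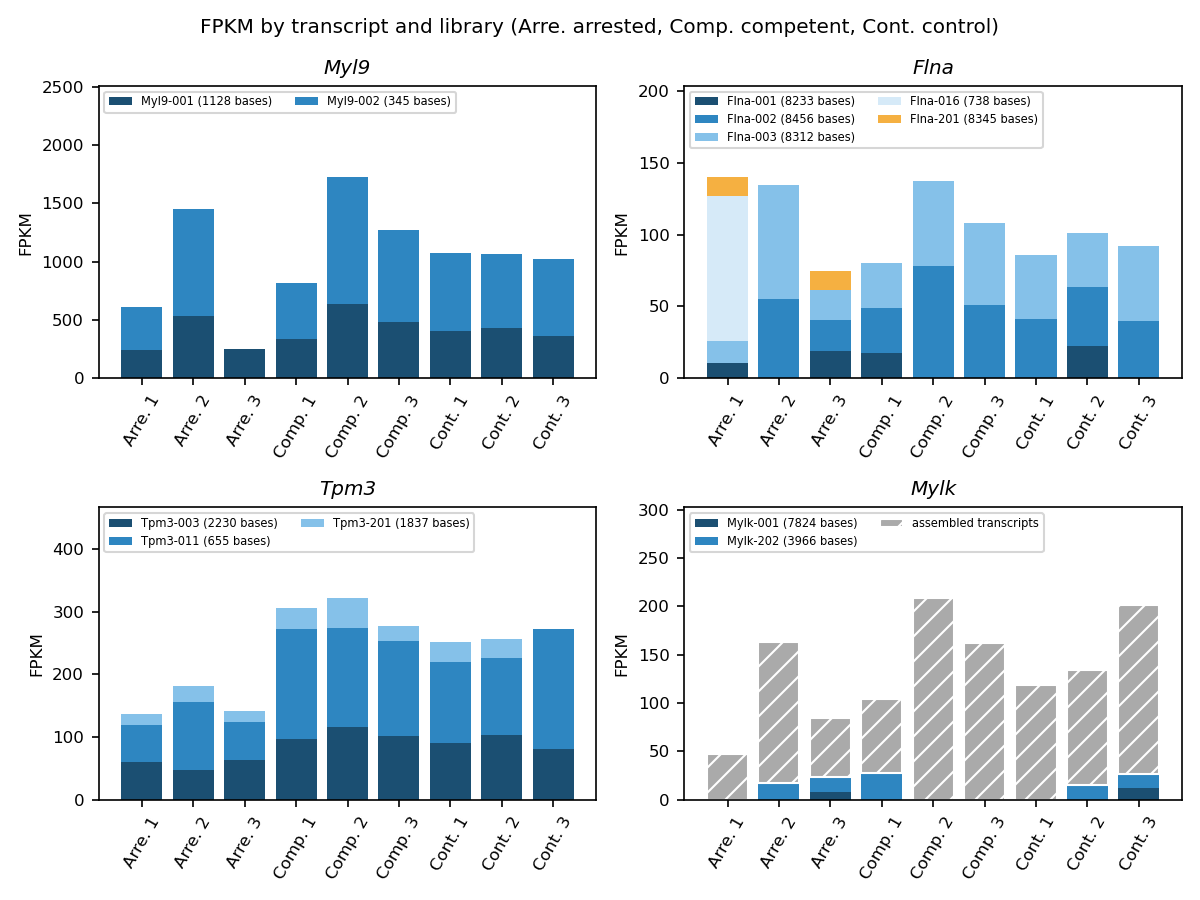
FPKM of Myl9, Flna, Tpm3 and Mylk in each library, stacked by annotated transcript with its length in bases, and for Mylk with assembled transcripts hatched. Myl9-002 is missing in arrested library 3, Flna-016 is present in arrested library 1 alone, Tpm3-003 and Tpm3-011 are lower in all 3 arrested libraries, and most Mylk signal is in assembled transcripts.

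Markers of other cell types also moved with the libraries, and their part in the results above was not tested. The 7 adipocyte markers, of which 5 were tested, summed to 3.70, 1276 and 143 FPKM in the arrested libraries, 8.45, 161 and 58.9 FPKM in the competent libraries and 111, 49.9 and 10.4 FPKM in the control libraries. Adipoq was listed at 0 in arrested library 1 and competent library 1, and arrested library 2, high for muscle genes, had the highest adipocyte sum of the 9. The 6 pericyte and vascular markers summed to 20.7, 74.7 and 41.1 FPKM in the arrested libraries, 31.01, 55.0 and 42.2 FPKM in the competent libraries and 41.8, 37.0 and 44.1 FPKM in the control libraries. They were lowest in arrested library 1 and highest in arrested library 2, and none was at 0 throughout. The 5 endothelial markers summed to between 26.2 and 64.9 FPKM in arrested, 29.7 and 43.2 in competent and 43.6 and 45.6 in control libraries, and none was at 0 throughout.

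Markers of stromal, lining and blood cells were summed in the same way. The 9 stromal fibroblast markers summed to 1243, 2292 and 1565 FPKM in the arrested libraries, 1373, 1279.7 and 1659 FPKM in the competent libraries and 1623, 1548 and 1747 FPKM in the control libraries. Arrested library 1 was lowest and arrested library 2 highest. Of the 9, 6 lay above 0 in arrested minus competent and 3 had an unadjusted limma p under 0.05. Dcn, the matrix proteoglycan decorin, had 792, 1281 and 1012 FPKM in the arrested libraries, 657, 523 and 687 FPKM in the competent libraries and 943, 838 and 928 FPKM in the control libraries. Every competent library lay below all others, with a difference of 0.71 ± 0.19 (SE) in arrested minus competent and -0.54 ± 0.19 (SE) in competent minus control (limma adjusted p = 0.291 and 0.883). Hoxa11 likewise was lowest in the competent libraries, with a difference of 0.74 ± 0.21 (SE) in arrested minus competent and -0.78 ± 0.21 (SE) in competent minus control (limma adjusted p = 0.327 and 0.867). In both comparisons the signs of Dcn and Hoxa11 are opposite to those of most contractile genes, but the list as a whole was mixed. In competent minus control 5 of the 9 stromal markers lay below 0 and 4 above. Col1a1, a collagen gene of the list, went the way of the contractile genes, with means of 106 FPKM in arrested, 238 FPKM in competent and 134 FPKM in control libraries.

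The 8 epithelial markers summed to 4756, 3791 and 6691 FPKM in the arrested libraries, 6073, 5326 and 3761 FPKM in the competent libraries and 5052, 3918 and 6089 FPKM in the control libraries, of which Wfdc2, a secreted protein gene, alone had between 1198 and 4506 FPKM. In arrested minus competent 6 of the 8 lay below 0, and 2 had an unadjusted limma p under 0.05. Elf3, an epithelial transcription factor gene, had 119, 130.3 and 159.7 FPKM in the arrested libraries, 385, 246 and 402 FPKM in the competent libraries and 317, 375 and 319 FPKM in the control libraries. All 3 arrested libraries lay below all others, as for Tpm3 and Pdlim7, with a difference of -1.31 ± 0.21 (SE) in arrested minus competent and -1.30 ± 0.21 (SE) in arrested minus control (limma adjusted p = 0.114 and 0.292). Cdh1, the cell adhesion protein E-cadherin, had 123, 104 and 112 FPKM in the arrested libraries, 176, 152 and 165 FPKM in the competent libraries and 137, 151 and 133 FPKM in the control libraries. Its arrested libraries also lay below all others, with a difference of -0.54 ± 0.11 (SE, limma adjusted p = 0.233) in arrested minus competent.

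The 5 mesothelial markers summed to between 41.3 and 114 FPKM in arrested, 43.7 and 158 in competent and 34.9 and 73.0 in control libraries. The 5 blood markers summed to between 2091 and 4842 FPKM in arrested, 747 and 3966 in competent and 937 and 1500 in control libraries, and the 7 leukocyte markers to between 139 and 298 FPKM over all 9. None of these lists had a marker at 0 throughout.

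Tissue from neighbouring organs was looked for in the same way. Of 12 skeletal and cardiac muscle markers 3 were tested and Myh4 was at 0 in all libraries, and the list summed to 6.17, 10.2 and 21.6 FPKM in the arrested libraries, 5.60, 14.04 and 36.6 FPKM in the competent libraries and 27.6, 21.5 and 21.8 FPKM in the control libraries. The 5 oviduct and ovary markers summed to 2.33 FPKM at most, except in arrested library 3 with 41.2 FPKM, nearly all of it Ovgp1. Of 4 bladder and intestine markers Vil1 and Cdx2 were at 0 in all libraries, none was tested, and the list summed to 1.46 FPKM at most.

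**Figure D4:**
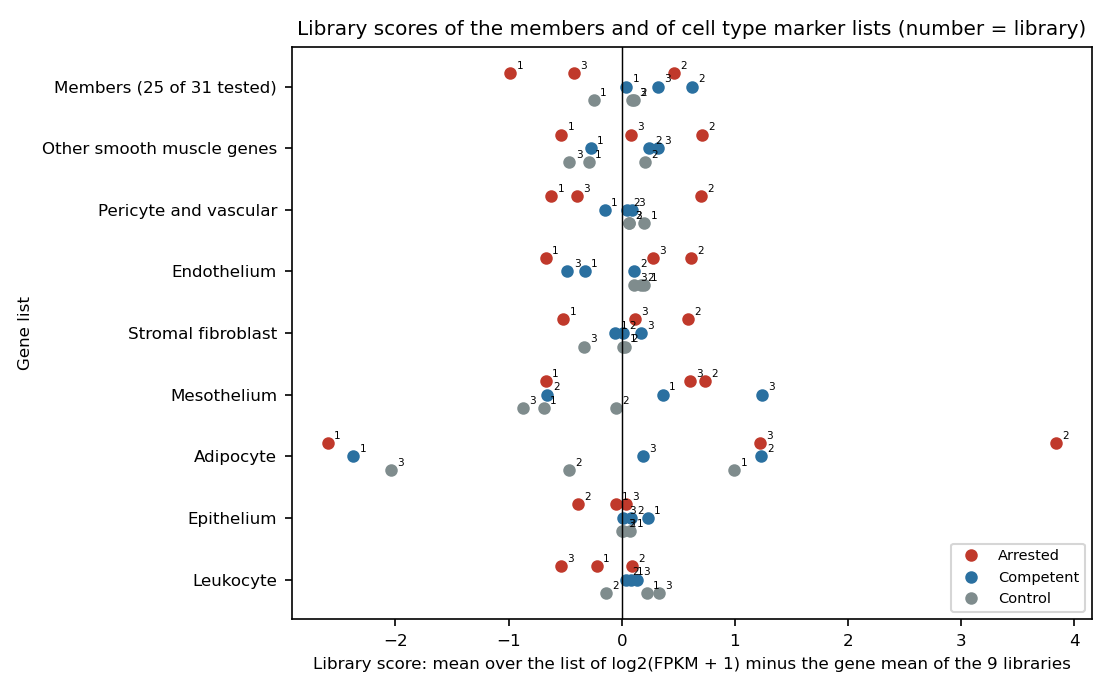
Library score of the contractile genes and of 8 other gene lists, which is the mean over the list's tested genes of log2(FPKM + 1) minus the gene's mean over the 9 libraries, with each point a numbered library and colours for the groups. For the contractile genes arrested libraries 1, 2 and 3 score -0.99, 0.46 and -0.42, and arrested library 1 lies low and arrested library 2 high for pericyte, endothelial, stromal and adipocyte lists as well.

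Among the genes that regulate or surround the contractile apparatus, 1 was called. Of 17 tested genes of light chain phosphatase, RhoA and calmodulin, 13 lay below 0 in arrested minus competent with a median of -0.19, and none was called. Calm3, a calmodulin gene, differed by -0.50 ± 0.19 (SE, limma adjusted p = 0.409). Of 12 tested genes of transcription through serum response factor, 9 lay below 0 with a median of -0.14, and none was called. Smarca4, a chromatin remodelling ATPase, had 15.6, 21.1 and 19.3 FPKM in the arrested libraries, 30.6, 27.6 and 29.6 FPKM in the competent libraries and 23.2, 24.1 and 26.6 FPKM in the control libraries. Its arrested libraries lay below all others, with a difference of -0.63 ± 0.14 (SE, limma adjusted p = 0.257). Elk1, which competes with myocardin for serum response factor, differed by -0.70 ± 0.21 (SE, adjusted p = 0.348).

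Of 15 tested receptor and cyclic nucleotide genes, 12 lay below 0 in arrested minus competent with a median of -0.26, and none was called. Pde5a, which breaks down cyclic GMP, lay the other way, with 2.30, 4.32 and 7.57 FPKM in the arrested libraries, 1.34, 1.46 and 1.20 FPKM in the competent libraries and 3.11, 3.55 and 0.97 FPKM in the control libraries. Its difference was 1.19 ± 0.43 (SE, limma adjusted p = 0.402). Of 16 tested calcium store and channel genes, 9 lay below 0 with a median of -0.08, and none was called. Itpr2, a calcium release channel of the endoplasmic reticulum, had 17.3, 23.2 and 24.1 FPKM in the arrested libraries, 14.9, 5.43 and 7.75 FPKM in the competent libraries and 17.7, 15.1 and 10.3 FPKM in the control libraries. All arrested libraries lay above all competent libraries, with a difference of 1.21 ± 0.35 (SE, limma adjusted p = 0.328).

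Of 26 tested genes of adhesion, costameres and caveolae, 19 lay below 0 in arrested minus competent with a median of -0.24, and Parva, which encodes the integrin-linked adaptor α-parvin, was called. By annotated transcripts Parva was listed at 0 in all 3 arrested libraries, had 68.6, 23.9 and 13.0 FPKM in the competent libraries and was listed at 0 in all 3 control libraries, so it was also called higher in competent than in control uteri, as were 0.015% of all genes. The adjusted p was 0.0184 in arrested minus competent and 0.0275 in competent minus control (limma). With assembled transcripts that share its junctions it had 70.3, 71.97 and 38.0 FPKM in the arrested libraries, 68.6, 62.7 and 73.9 FPKM in the competent libraries and 67.9, 76.3 and 63.1 FPKM in the control libraries. Arrested library 3 was then lowest, the other 8 lay between 62.7 and 76.3 FPKM, and no group stood apart.

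Of 11 non-muscle counterparts of the contractile genes, 7 lay below 0 in arrested minus competent with a median of -0.24, and none was called. Actb, cytoplasmic β-actin, had 751, 869.8 and 826 FPKM in the arrested libraries, 1083, 1211 and 1048 FPKM in the competent libraries and 1000.4, 1041 and 1123 FPKM in the control libraries. All arrested libraries lay below all others, with a difference of -0.45 ± 0.11 (SE, limma adjusted p = 0.263). Cnn3, a calponin of many cell types, lay the other way, at 0.81 ± 0.24 (SE, adjusted p = 0.351). Of 18 tested smooth muscle genes outside the 31, 10 lay below 0 with a median of -0.09, and none was called. Jph2, which holds the sarcoplasmic reticulum to the cell membrane, had 1.46, 15.2 and 3.26 FPKM in the arrested libraries, 9.43, 19.0 and 14.9 FPKM in the competent libraries and 6.67, 9.47 and 7.49 FPKM in the control libraries. It was lowest in arrested library 1 and highest in competent library 2.

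In the other 2 comparisons these lists gave no call beyond Parva. In competent minus control their medians lay between -0.07 and 0.23, and in arrested minus control between -0.24 and 0.26. In arrested minus control the smooth muscle genes outside the 31 had a median of 0.26, with 11 of 18 above 0.

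The promoters of the muscle genes were searched for the element that serum response factor binds. RefSeq entries on GRCm38.p6 gave a window from 250 bases before to 50 after the start for 27 of the 31 genes, with Actg2, Tagln, Myh11 and Myocd unmatched. A CArG box was counted only as an exact match to CCWWWWWWGG, with W for A or T, on both strands. Such a match was present for 3 of the 27 genes, or 11.1%, and for 1.81% of all 27025 genes with an entry. These were Myl9, Vcl and Ldb3, whose 250 bases before the start are shown because they hold the box, in capitals. The first base of the box lies at -161 in Myl9, -227 in Vcl and -35 in Ldb3, counted from the start site. Myl9 is at chr2:156775214-156775463 and Vcl at chr14:20929148-20929397, both on the plus strand, and Ldb3 at chr14:34588682-34588931 on the minus strand. Ldb3 has a second, overlapping entry that holds the same box. Near matches were not counted. Acta2 had no exact match, but its 250 bases before the start hold ccctatatgg and ccttgtttgg, each with a C or G among the middle bases.
Myl9: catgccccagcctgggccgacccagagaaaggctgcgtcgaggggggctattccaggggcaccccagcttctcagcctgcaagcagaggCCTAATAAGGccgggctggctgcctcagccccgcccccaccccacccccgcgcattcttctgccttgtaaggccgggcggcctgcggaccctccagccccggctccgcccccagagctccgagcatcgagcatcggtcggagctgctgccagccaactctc
Vcl: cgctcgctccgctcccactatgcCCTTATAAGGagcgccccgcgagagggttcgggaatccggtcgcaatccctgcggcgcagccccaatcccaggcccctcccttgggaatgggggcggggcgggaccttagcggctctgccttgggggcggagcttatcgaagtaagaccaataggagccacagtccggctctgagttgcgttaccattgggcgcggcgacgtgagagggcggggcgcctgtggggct
Ldb3: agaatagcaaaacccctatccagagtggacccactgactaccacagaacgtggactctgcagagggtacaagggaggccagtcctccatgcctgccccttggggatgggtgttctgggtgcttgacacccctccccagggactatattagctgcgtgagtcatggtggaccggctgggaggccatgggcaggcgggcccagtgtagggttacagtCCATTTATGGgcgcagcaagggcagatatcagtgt
The hexamer TATAAA was present for 2 of the 27 genes, Cald1 and Synpo2, or 7.41%, and for 15.7% of all genes. The E-box CANNTG was present for 21, or 77.8%, and for 75.0% of all genes. Both strands were searched for each, and a match is a description of the letters in the window.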

How the data were processed

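RNA from whole uterus was sequenced in 9 libraries, 3 per group. The submitters' processing notes name Bowtie 0.12.2, Cufflinks and the mouse build mm9; a Cufflinks version is not given in the sources used here. Values used are the authors' deposited FPKM per transcript, and the deposited coverage signal is read depth per transcript, used only to describe depth. Per the file headers, FPKM come with confidence limits, which were not used, and since control library 1 lacks a header its columns were read by position.

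Genes were assigned through GENCODE vM1 on NCBIM37, with 97.9% of transcripts at identical coordinates, and 459 transcripts without a gene were left out. A gene's value was the sum of FPKM over annotated transcripts. An assembled transcript was counted with a gene only if it had several exons and the junctions it has in common with the annotation are of that gene alone. Because FPKM are not counts, log2(FPKM + 1) was tested with limma 3.58.1 in R 4.3.3, with a mean trend, in 1 fit of 9 libraries (8.06 degrees of freedom, 2.06 of them prior) for genes averaging 1 FPKM or more. A length-weighted level adds FPKM times transcript length and divides by the length of its longest annotated transcript. Adjustment was over all genes tested, at a threshold of 0.05. Differences on this scale understate changes of low genes. The fit was tested on 3 simulations of arrested minus competent with 200 changed genes among 13377. It recovered 49% of log2 changes of 1 and 75% of changes of 2, and 9.67 unchanged genes were called on average. The changed genes were drawn only from genes with a mean log2(FPKM + 1) above 3. The recovery rates therefore do not cover lower genes such as Oxtr, Kcnmb1 and Synm. Each gene was simulated with a spread pooled over the groups, and the changed genes were drawn at random. The contractile genes had a median range of 1.54 between arrested libraries, against 0.68 over all tested genes. The rates are thus not those of the contractile genes.

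The 31 genes, the other lists and the markers were chosen with earlier results of these data known. Values per library are given for Acta2, Actg2, Myh11, Des, Tpm3, Oxtr, Kcnmb1 and Myocd, for called genes of the 31, and for the gene of smallest p of each role in each comparison; other genes are given by range. Tpm2, Flna, Mylk and assembled values of further genes, and Tpm3-rs7, Ovgp1, Elf3, Cdh1, Dcn and Hoxa11, were added after their values were seen. From the other lists, called genes and up to 2 of smallest p were eligible. Coding sequence identity stands in place of protein identity. Python 3.11.15, pandas 2.3.3, numpy 2.4.6 and Biopython 1.88 were used. Alternatives were another pseudocount, filter, scaling, gene value, variance model, block and the omission of each library.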

Additional observations from a re-analysis of the deposited data

How the results depend on the processing

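For 11 genes (Acta2, Actg2, Cald1, Tpm3, Myh11, Myl9, Ppp1r14a, Des, Pdlim7, Oxtr and Kcnmb1) 23 alternatives were computed, or 22 where a gene missed a stricter filter. Over their 3 comparisons 717 values kept their direction and side of the threshold, 19 changed sign, 16 lost the Tpm3 call and 1 gained a call. Of the other 14 tested genes none was called under any of these alternatives, and at least 1 alternative changed the sign for 5 in arrested minus competent (Tagln, Mylk, Synm, Flna and Pgm5), 6 in competent minus control and 12 in arrested minus control. The median of the 25 genes kept its sign in all alternatives, except in arrested minus control without arrested library 1.

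Genes called in arrested minus competent numbered 18, against 11 with failed estimates left out, 11 with the transcript of highest mean FPKM, 10 without a trend, 33 with the 2 groups alone and 56 with length weighting and assembled transcripts. In competent minus control 6 were called, against 2 with a pseudocount of 5, 10 with no filter, 3 with failed estimates left out, 12 with the 2 groups alone, 2 with length weighting and 1 with length weighting and assembled transcripts. In arrested minus control 7 were called, against 1 with failed estimates left out and 3 with the highest transcript, and in the F test 13, against 6 and 6. Both length-weighted alternatives were chosen after the data were seen. The count of the 25 called in arrested minus competent, 1, became 0 with a pseudocount of 5, no filter, failed estimates left out, the highest transcript, no trend, array weights or the 2 groups alone.

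With 1 library left out, genes called ranged from 12 to 43 in arrested minus competent, 4 to 17 in competent minus control, 7 to 25 in arrested minus control and 15 to 37 in the F test, and the contractile genes called from 0 to 1. With the replicate number as a block the counts were 4 in arrested minus competent, 1 in competent minus control and 5 in the F test. In that setting 0 contractile genes were called, and 10 of the 25 had an unadjusted p under 0.05 in arrested minus competent, against 4. No share over all genes is given for that count of 10. The replicate numbers were not taken as pairing, since same-number deviations correlated at only -0.04 to 0.10, although 6 of 9 libraries correlated best with their own number.

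Signs changed in arrested minus control with array weights for Cald1 (0.28), Ppp1r14a (0.00678) and Kcnmb1 (0.0102), where 13 of the 25 genes lay below 0, against 21. They also changed there for Cald1 with the highest transcript (0.14) and with length weighting (0.00176), and for Oxtr with a pseudocount of 0.1 (-0.20). In competent minus control the sign changed for Kcnmb1 with assembled transcripts (-0.13). With 1 library left out, arrested minus control ranged from -0.58 to 0.63 for Cald1, -0.31 to 0.20 for Kcnmb1, -1.23 to 0.12 for Myh11, -0.66 to 0.11 for Des, -0.39 to 0.69 for Oxtr and -0.56 to 0.0196 for Ppp1r14a. Competent minus control ranged from -0.17 to 0.44 for Acta2, -0.0478 to 0.49 for Myl9 and -0.10 to 0.26 for Pdlim7. The cause was not tested. With 3 libraries a group, and the arrested libraries spread as they are, the median standard error of a contractile gene's difference was 0.39 on the log2 scale.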
